A study of Mus musculus with 9 samples.

Results

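The 8 genes described here are the C/EBP transcription factor genes Cebpa, Cebpb, Cebpd and Cebpg, the acetyltransferase genes Ep300 and Crebbp, which encode p300 and CBP, and Smarca2 and Smarca4, which encode BRM and BRG1, the ATPase subunits of SWI/SNF chromatin remodelling complexes. The rows were picked by symbol, and the set was drawn up by function with earlier results of these data known. All 8 symbols were among the 23444 rows of each table. Their transcripts were measured by RNA sequencing of liver from C57Bl6 mice in 3 groups of 3 libraries. The treated group held mice of 20 to 22 months fed chow with PD-0332991 for 2 weeks, at an amount labelled 450 with the unit printed as mg/k. PD-0332991, or palbociclib, inhibits the cell cycle kinases CDK4 and CDK6. The aged untreated group held mice of the same age range and the young untreated group mice of 2 months, both without the drug. The drug was given to the whole animal, whole liver was used, and no young treated group was part of the comparison, so drug and age together set the contrast of treated with young livers. The series title names Cdk4 and age-associated fat accumulation in the liver as the question.

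C/EBP proteins are basic leucine zipper factors that bind DNA as dimers with each other. In the liver C/EBP-alpha is best known for maintaining the differentiated, metabolic programme of hepatocytes, while C/EBP-beta and C/EBP-delta are known for the acute phase response, the secretion of inflammatory plasma proteins. They recruit p300 and CBP, which acetylate histones, and SWI/SNF complexes, which use the energy of ATP to move nucleosomes.

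The values are TPM, a measure of transcript share, which divide out transcript length, so levels of different genes can be set side by side, but the sequencing depth behind them is unknown. The rows of a library summed to between 53.1% and 57.7% of the total to which TPM are scaled. The hepatocyte marker genes summed to 23402 to 30729 TPM in treated, 23363 to 31271 TPM in aged untreated livers, and 35741 to 36584 TPM in young livers over the 9 listed markers, of which Alb, the albumin gene, was listed at 0 in all 9 libraries. These sums rest on a few abundant genes and do not stand for all markers. Fabp1 had means of 7726 TPM in treated, 7050 TPM in aged untreated and 12661 TPM in young livers. Hnf4a went the other way, at 160, 155 and 109 TPM. Of the 8 tested markers, 4 had a log2 fold change above 0 in aged untreated against young livers, with a median of -0.06. Of all tested genes 47.9% lay above 0 there. Fewer cells of a type and less RNA per cell cannot be told apart in whole liver. Whether each library is a different animal is not stated, and the p-values therefore rest on a spread between libraries that may be technical.

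Cebpb was the only one of the 8 genes that passed the test in any comparison, and Cebpa is the relative nearest to it in level, so the promoters of these 2 are shown. For 7 of the 8 genes, all but Cebpd, RefSeq promoter windows (GRCm38.p6) were found. Each runs from 250 bases before to 50 bases after the annotated start, and both shown here lie on the + strand, Cebpb at chr2:167688665-167688964 and Cebpa at chr7:35119043-35119342. Capitals mark TGACG on either strand, the half-site of the cAMP response element, and TATAAA, the core of a TATA box.
Cebpb: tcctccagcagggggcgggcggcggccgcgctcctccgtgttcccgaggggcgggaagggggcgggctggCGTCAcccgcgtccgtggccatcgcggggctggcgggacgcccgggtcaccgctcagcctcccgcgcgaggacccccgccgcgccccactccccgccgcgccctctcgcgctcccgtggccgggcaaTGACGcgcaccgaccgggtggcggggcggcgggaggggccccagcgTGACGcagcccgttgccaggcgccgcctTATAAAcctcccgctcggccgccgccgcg
Cebpa: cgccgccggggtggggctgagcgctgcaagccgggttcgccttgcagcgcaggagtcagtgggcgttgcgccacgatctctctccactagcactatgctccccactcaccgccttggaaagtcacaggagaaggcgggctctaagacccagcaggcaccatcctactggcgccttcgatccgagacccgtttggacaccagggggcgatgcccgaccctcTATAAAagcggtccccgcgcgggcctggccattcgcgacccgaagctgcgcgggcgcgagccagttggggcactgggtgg
The Cebpb window held 3 TGACG half-sites, with leftmost bases at -180, -53 and -7 relative to the annotated start, and the Cebpa window held none. Of 32841 promoter windows of this length, 20.8% held at least 1 TGACG and 1.04% held 3 or more. TATAAA began at 22 in Cebpb, which lies after the annotated start, and at -30 in Cebpa, and 13.6% of windows held it. The full element TGACGTCA, which contains the half-site and occurs in 1.79% of windows, was in neither. The letters TTGCNNAA, a form of the C/EBP site, and TTCNNNGAA, a STAT site, each searched on both strands, were in none of the 7 windows, against 10.8% and 8.30% of all windows. At such shares their absence from 7 windows says little, and Cebpd was not searched. A match of letters is a description and not a bound site. GC content was 80.7% in the Cebpb and 67.3% in the Cebpa window, against a median of 52.7% over all windows.

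Cebpb, a single-exon gene on chromosome 2 (167688915 to 167690418, + strand), was at 156, 133 and 187 TPM in treated replicates 1, 2 and 3, against 84.0, 71.0 and 88.6 TPM in aged untreated livers, and 73.8, 78.8 and 90.4 TPM in young livers. Every treated library lay above every untreated one, and the 2 untreated groups covered almost the same range. The means were 159 ± 27.3 TPM in treated, 81.2 ± 9.15 TPM in aged untreated livers, and 81.0 ± 8.53 TPM in young livers (± SD, n = 3, as for all means that follow). Cebpb rose 1.96-fold in treated over aged untreated livers, or by 0.96 ± 0.14 on the log2 scale (± SE; limma adjusted p = 0.0156 over 10161 tested genes). This was 1 of 8 genes called, against 1.45% of all tested genes called in this comparison (0.61% higher and 0.837% lower). Among the 62 genes called higher, 29 had a larger fold change than Cebpb, which ranked 13 by p-value among all tested genes.

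Against young livers the treated livers had a Cebpb log2 fold change of 0.96 ± 0.14 (limma adjusted p = 0.00424), again 1 of 8 genes called, against 6.88% of all tested genes (2.59% higher and 4.29% lower). This comparison and the previous one share the treated libraries. Between aged untreated and young livers the log2 fold change was 0.00 ± 0.14 with a 95% interval from -0.30 to 0.30 (limma adjusted p = 0.996). None of the 8 genes was called in that comparison by limma and none had an unadjusted p under 0.05, against 1.10% of all tested genes called (0.65% higher and 0.453% lower). The treated against aged call of Cebpb was lost without treated replicate 3, its highest library (log2 fold change 0.83, limma adjusted p = 0.0577), and was kept without any other 1 library.

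**Figure D1:**
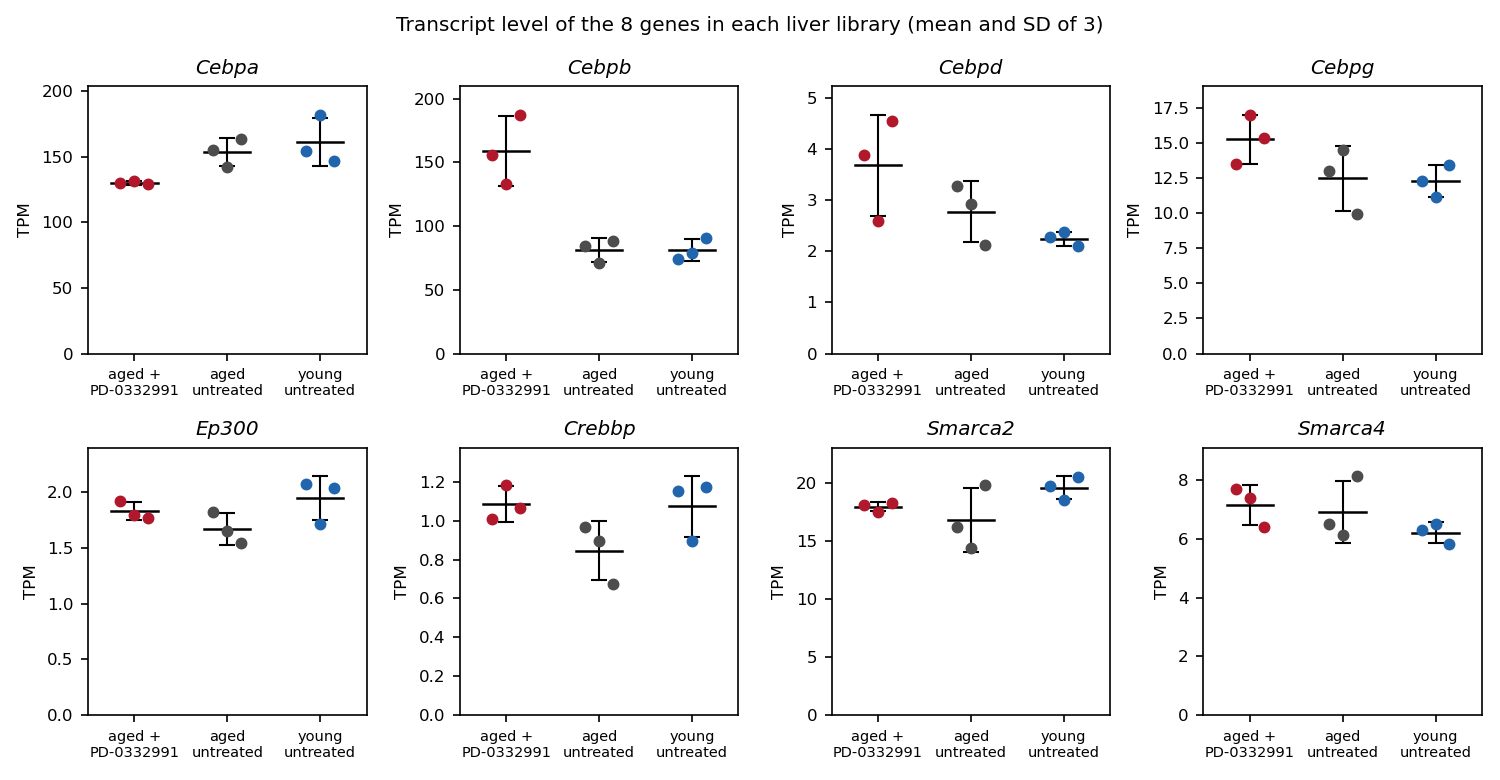
Level of each of the 8 genes in TPM (y axes, each from 0) in aged mice given PD-0332991, aged untreated and young untreated livers; points are libraries in the order of replicate 1 to 3, and bars are mean and SD of 3. The treated libraries of Cebpb lie at 133 to 187 TPM, above all 6 untreated ones, while those of Cebpa lie at 129 to 132 TPM, below all 6.

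The annotated span of Tmem189, introns included, overlaps 908 of the 1504 bases of Cebpb on the other strand. Whether exons are shared was not examined. Strand is not stated for these libraries, so reads of any shared exon part could not be told apart. Tmem189 itself was at 7.40, 8.31 and 9.07 TPM in treated, 8.29, 5.97 and 6.59 TPM in aged untreated livers, and 4.76, 4.88 and 4.43 TPM in young replicates 1 to 3. Its levels were thus far below those of Cebpb in every library, and it was not called between treated and aged untreated livers (log2 fold change 0.24, limma adjusted p = 0.373). Against young livers Tmem189 was called higher in treated livers (log2 fold change 0.75, limma adjusted p = 0.011).

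Cebpa, on chromosome 7 (35119293 to 35121928), was at 129.8, 132 and 129 TPM in treated, 155, 142 and 164 TPM in aged untreated livers, and 155, 182 and 147 TPM in young replicates 1, 2 and 3. All 3 treated libraries were below all 6 untreated ones and close to each other, while aged untreated and young livers overlapped. The means were 130.2 ± 1.33 TPM in treated, 154 ± 10.8 TPM in aged untreated livers, and 161 ± 18.5 TPM in young livers. The log2 fold change of Cebpa was -0.24 ± 0.10 in treated against aged untreated livers (95% interval -0.46 to -0.02, limma adjusted p = 0.244) and -0.30 ± 0.10 in treated against young livers (-0.52 to -0.08, adjusted p = 0.0937), and neither passed the threshold. These values are to be read beside the median of all tested genes, which was itself -0.09 and -0.10 in those comparisons. Of all tested genes, 16.7% had every treated library below every aged untreated one. With libraries rescaled by median of ratios the Cebpa value against aged untreated livers was -0.13.

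Cebpd, the inducible family member of the acute phase response (chromosome 16, 15887286 to 15891031), was expressed at a much lower level. It was at 3.89, 2.59 and 4.55 TPM in treated, 3.28, 2.93 and 2.11 TPM in aged untreated livers, and 2.28, 2.37 and 2.10 TPM in young replicates 1, 2 and 3. Treated and aged untreated livers overlapped, while every treated library lay above every young one. The Cebpd log2 fold change was 0.34 ± 0.20 in treated against aged untreated livers (limma adjusted p = 0.383) and 0.58 ± 0.20 in treated against young livers (adjusted p = 0.101). The first was 0.19 without treated replicate 3 or aged untreated replicate 3, and 0.54 without treated replicate 2. Against young livers it reached the threshold when libraries were weighted by quality (adjusted p = 0.0285) and without aged untreated replicate 3 (adjusted p = 0.049), a library that enters this contrast only through the estimate of the spread. Spidr, whose annotated span overlaps that of Cebpd on the other strand, was at 0.988 to 1.69 TPM in treated, 1.01 to 1.41 TPM in aged untreated livers, and 1.11 to 1.45 TPM in young livers.

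Cebpg, a widely expressed member that acts mainly as a dimer partner (chromosome 7, 35046422 to 35056573), was at 13.5, 17.0 and 15.4 TPM in treated, 13.0, 14.5 and 9.96 TPM in aged untreated livers, and 12.3, 11.1 and 13.4 TPM in young replicates 1, 2 and 3. Its treated libraries overlapped the aged untreated ones and lay just above the young ones, 13.468 against a young maximum of 13.447 TPM at the nearest point. The Cebpg log2 fold change was 0.29 ± 0.15 in treated against aged untreated livers (95% interval -0.03 to 0.61, limma adjusted p = 0.314). It was 0.14 without aged untreated replicate 3, its lowest library.

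The coactivator transcripts were low and did not pass the test in any comparison. Ep300 (chromosome 15, 81585351 to 81652077) was at 1.92, 1.80 and 1.77 TPM in treated, 1.83, 1.65 and 1.54 TPM in aged untreated livers, and 2.08, 1.72 and 2.04 TPM in young replicates 1, 2 and 3. All 3 groups overlapped, and the Ep300 log2 fold change was 0.10 in treated against aged untreated livers (95% interval -0.20 to 0.41), -0.17 in aged untreated against young livers (-0.47 to 0.13) and -0.07 in treated against young livers (-0.37 to 0.24). The first of these was 0.057 without aged untreated replicate 3. Crebbp (chromosome 16, 4081328 to 4213997) was at 1.01, 1.19 and 1.06 TPM in treated, 0.967, 0.897 and 0.676 TPM in aged untreated livers, and 1.15, 0.894 and 1.18 TPM in young replicates 1, 2 and 3. All treated libraries of Crebbp lay above all aged untreated ones, but only narrowly, with a log2 fold change of 0.24 ± 0.17 (95% interval -0.13 to 0.61, limma adjusted p = 0.478; 0.15 without aged untreated replicate 3). The share of tested genes with every treated library above every aged untreated one was 5.72%. Crebbp reached 1 TPM in 5 of 9 libraries, none of them aged untreated, and so passed the filter of 1 TPM in 3 libraries only through the groups in which it was higher. At such levels the log2(TPM + 0.5) scale understates a change.

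The ATPase genes also did not pass. Smarca2 (chromosome 19, 26605050 to 26778322) was at 18.05, 17.5 and 18.3 TPM in treated, 16.2, 14.3 and 19.7 TPM in aged untreated livers, and 19.7, 18.5 and 20.5 TPM in young replicates 1, 2 and 3. The aged untreated libraries spread around the treated ones, which all lay below the young ones. The Smarca2 log2 fold change was 0.11 in treated against aged untreated livers (95% interval -0.15 to 0.37), -0.23 in aged untreated against young livers (-0.49 to 0.03, limma adjusted p = 0.404) and -0.12 in treated against young livers (-0.38 to 0.14). The first of these was 0.0046 with aged untreated replicate 2 left out and 0.23 with replicate 3 of that group left out. Smarca4 (chromosome 9, 21616169 to 21704230) was at 7.70, 7.40 and 6.40 TPM in treated, 6.49, 6.15 and 8.14 TPM in aged untreated livers, and 6.29, 6.52 and 5.84 TPM in young replicates 1, 2 and 3, and all groups overlapped. Its log2 fold change was 0.05 (95% interval -0.24 to 0.34) in treated against aged untreated livers and 0.14 (-0.15 to 0.42) in aged untreated against young livers. The first ranged over -0.024 to 0.17 with 1 library left out, lowest without aged untreated replicate 2 and highest without aged untreated replicate 3. A missed threshold does not show that these levels were equal. The intervals bound the differences on the log2(TPM + 0.5) scale.

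**Figure D2:**
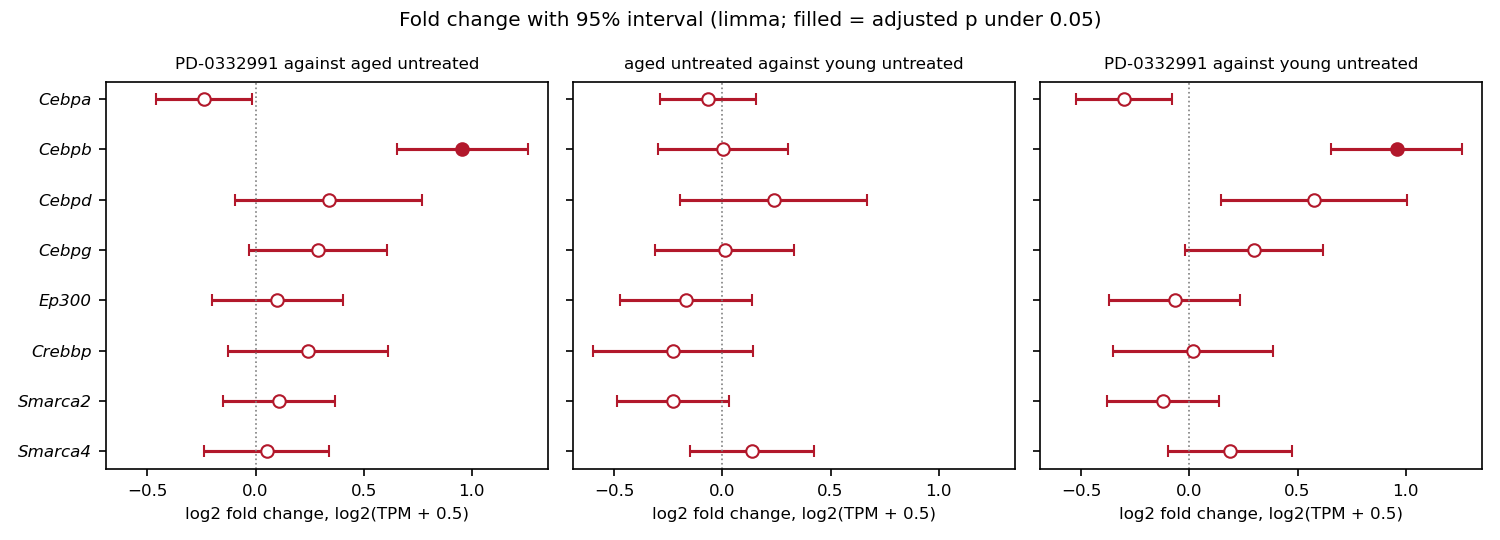
Log2 fold change on the log2(TPM + 0.5) scale (x axis) of the 8 genes (rows) in the 3 comparisons, as points with 95% intervals from limma; filled points have an adjusted p under 0.05. Cebpb at 0.96 in both comparisons of treated livers is filled, and no gene is filled between aged untreated and young livers.

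Counted over the 8 genes, 7 log2 fold changes were above 0 in treated against aged untreated livers, with a median of 0.17 beside -0.09 over all tested genes, of which 33.3% lay above 0. Treated and aged untreated libraries did not overlap for 3 of the 8 genes, Cebpb and Crebbp higher and Cebpa lower, where 22.4% of all tested genes did not overlap. In aged untreated against young livers 4 of 8 were above 0, the median was -0.03 beside -0.01 over all tested genes, and no gene was without overlap, against 18.4% of all tested genes (8.82% higher and 9.57% lower). In treated against young livers 5 of 8 were above 0, with a median of 0.10 beside -0.10, and 5 did not overlap, 3 higher and 2 lower, where 33.9% of all tested genes did not overlap (9.55% higher and 24.4% lower).

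In TPM the order of levels in aged untreated and young livers was Cebpa, Cebpb, Smarca2, Cebpg, Smarca4, Cebpd, Ep300 and Crebbp. In treated livers the order was the same except that Cebpb stood above Cebpa. Neighbours in this order did not overlap within a group, apart from Smarca2 and Cebpg in aged untreated livers, whose ranges met. Cebpb was at 133 to 187 TPM and Cebpa at 129 to 132 TPM in the treated libraries.

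The ratio of Cebpb to Cebpa within a library does not depend on how libraries are scaled. It was 1.202, 1.01 and 1.45 in treated, 0.541, 0.499 and 0.541 in aged untreated and 0.476, 0.432 and 0.615 in young replicates 1, 2 and 3. All 3 treated libraries were above 1 and all 6 untreated ones below it, without overlap. The log2 ratio was higher by 1.198 in treated than in aged untreated livers and by 1.27 than in young livers, each with p = 0.1 in an exact two-sided permutation test, which cannot give less with 3 libraries a group (adjusted p = 0.3 over 12 ratio tests). In aged untreated against young livers it differed by 0.07 (exact permutation p = 0.7).

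Cebpd relative to Cebpa was highest in treated livers, with a mean log2 ratio higher by 0.63 than in aged untreated livers, with overlap (exact permutation p = 0.3), and by 0.98 than in young livers, without overlap (exact permutation p = 0.1, adjusted p = 0.3). The ratio of Crebbp to Ep300 was 0.525 to 0.660 in treated, 0.438 to 0.543 in aged untreated and 0.521 to 0.575 in young livers, and all groups overlapped. The ratio of Smarca2 to Smarca4 was 2.34, 2.36 and 2.85 in treated, 2.49, 2.33 and 2.43 in aged untreated and 3.13, 2.84 and 3.51 in young replicates 1, 2 and 3. The aged untreated libraries all lay below the young ones, by 0.38 on the log2 scale (exact permutation p = 0.1, adjusted p = 0.3), which was the only ratio of the 4 without overlap between these groups.

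**Figure D3:**
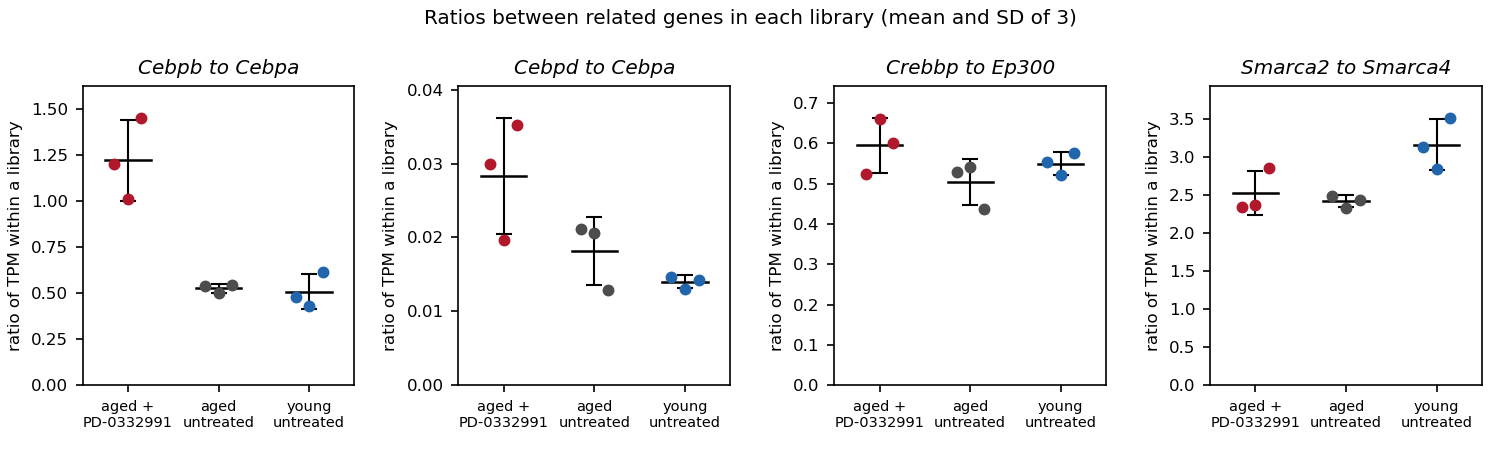
Ratio of TPM within each library (y axes, each from 0) for 4 pairs of related genes in treated, aged untreated and young livers; points are libraries in the order of replicate 1 to 3, with mean and SD of 3. The Cebpb to Cebpa ratio is 1.01 to 1.45 in treated and at most 0.615 in untreated libraries, and the Smarca2 to Smarca4 ratio is 2.84 to 3.51 in young and 2.33 to 2.49 in aged untreated libraries.

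Cebpb was the one gene of the 8 whose level ranged over at least 1 on the log2 scale across the 9 libraries, and the genes most like it were sought by the root mean square difference of centred log2(TPM + 0.5) values. The nearest of all tested genes was Slc25a51, a mitochondrial carrier of NAD (difference 0.173), followed by 1810055G02Rik (0.195) and Fh1, the fumarate hydratase of the citric acid cycle (0.208). The median difference over all tested genes was 0.551. Slc25a51 was at 29.5 ± 3.37 TPM in treated, 14.2 ± 2.82 TPM in aged untreated livers, and 13.4 ± 2.33 TPM in young livers. Fh1 was at 184 ± 23.7 TPM in treated, 129.6 ± 10.1 TPM in aged untreated livers, and 119 ± 5.77 TPM in young livers. The likeness was measured over the 9 libraries alone.

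The other genes of the C/EBP circuit were read from lists chosen by function. In the list of other C/EBP and related leucine zipper genes, 10 of 12 were tested. Between treated and aged untreated livers 0.837% of all tested genes were called lower and 0.61% higher. Among the 10, 1 fell and none rose. This was Atf4, the main factor of the integrated stress response and a dimer partner of C/EBPs, at 68.8, 68.8 and 60.4 TPM in treated and 87.2, 98.0 and 93.4 TPM in aged untreated replicates 1 to 3 (log2 fold change -0.49 ± 0.10, limma adjusted p = 0.0336). Every treated library lay below every untreated one. The Atf4 call was lost with median-of-ratios scaling (adjusted p = 0.0846), with no filter (0.059), in a fit of these groups alone (0.0864), without aged untreated replicate 1 and young replicate 2 together (0.0567; the untreated libraries highest in Saa1, left out after the values were seen), and without treated replicate 1, 2 or 3, aged untreated replicate 2 or young replicate 1 or 2 (0.051 to 0.139). Ddit3, which encodes CHOP, a C/EBP relative that blocks DNA binding of its partners, was at 10.6 ± 1.78 TPM in treated, 14.6 ± 5.57 TPM in aged untreated livers, and 6.81 ± 0.567 TPM in young livers and was not called (adjusted p = 0.403 in treated against aged untreated, 0.0749 in aged untreated against young livers). Atf5 was at 228 ± 34.8 TPM in treated, 177 ± 25.8 TPM in aged untreated livers, and 161 ± 15.1 TPM in young livers. Tef, a clock output factor, was at 23.8 ± 6.53, 12.2 ± 5.83 and 19.1 ± 2.56 TPM in the same groups, and neither was called. Aged untreated replicate 3 stood apart in Tef, at 18.9 TPM beside 8.77 and 8.85 TPM in replicates 1 and 2. Without it Tef was called higher in treated against aged untreated livers (log2 fold change 1.35, limma adjusted p = 0.00589), as also with array weights (0.0393). Leaving out the library of the group with the most Tef raises the fold change by itself, so that call is no test of Tef.

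Nfil3, a leucine zipper repressor that shares binding sites with Tef and Dbp, rose in aged untreated livers to 18.5 ± 3.82 TPM, against 9.43 ± 0.850 TPM in young livers (log2 fold change 0.92 ± 0.15, limma adjusted p = 0.0144), and was at 27.0 ± 2.47 TPM in treated livers (1.47 ± 0.15 against young, adjusted p = 0.00109). The age call of Nfil3 was lost without young replicate 1 or 2 (0.0558 to 0.0869) and without aged untreated replicate 1 and young replicate 2 together (0.104). Between treated and young livers Nfil3 rose and Atf4 fell (adjusted p = 0.0453), 1 and 1 of 10, beside 2.59% higher and 4.29% lower of all tested genes. That Atf4 call was lost with median-of-ratios scaling (0.18), with quantile normalization (0.066), with no filter (0.0637), without aged untreated replicate 1 and young replicate 2 together (0.126) and without any 1 treated or young library or aged untreated replicate 2 (0.0526 to 0.149).

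Of 11 tested regulators of C/EBP proteins, none was called by limma in treated against aged untreated livers, where 3 had an unadjusted p under 0.05, and none in aged untreated against young livers, where 1 had. Of all tested genes 18.25% had such a p in the first comparison and 14.99% in the second, and the like counts of the lists that follow stand beside these shares. Counts of called genes stand beside 1.45% of all tested genes called in the first, 1.10% in the second and 6.88% between treated and young livers. Cdk4, whose product is the drug's target and phosphorylates C/EBP-alpha, was at 22.4 ± 2.33 TPM in treated, 24.7 ± 2.51 TPM in aged untreated livers, and 23.9 ± 1.79 TPM in young livers, and its partner Ccnd3 at 16.0 ± 1.21, 16.8 ± 2.01 and 15.7 ± 0.856 TPM. The kinase is inhibited at the protein, so these levels are no check of the drug. Between treated and young livers Trib1, which directs C/EBP-alpha protein to degradation, rose (14.4 ± 1.197 TPM against 8.08 ± 0.965 TPM, limma adjusted p = 0.0155), and the deacetylase gene Hdac1 fell (8.24 ± 0.361 TPM against 12.2 ± 0.672 TPM, 0.0184). Trib1 was at 14.003 ± 3.14 TPM and Hdac1 at 11.7 ± 1.40 TPM in aged untreated livers. The Trib1 call was lost without treated replicate 2 or young replicate 1 or 3 (adjusted p of 0.0539 to 0.0695) and that of Hdac1 without treated replicate 1, 2 or 3 or young replicate 1 or 3 (0.0544 to 0.0756).

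Among 14 tested hepatic genes known as C/EBP targets, none was called by limma in treated against aged untreated livers (3 with an unadjusted p under 0.05), with a median log2 fold change of -0.17 beside -0.09 over all tested genes. Arg1, the arginase of the urea cycle, was at 635 ± 79.0 TPM in treated and 746 ± 49.1 TPM in aged untreated livers, and Apoc3 at 6245 ± 42.7 and 6815 ± 426 TPM, both without passing the test. In aged untreated against young livers Gys2, the liver glycogen synthase gene, fell (34.0 ± 5.84 TPM against 51.1 ± 4.09 TPM, limma adjusted p = 0.0463), a call lost without any 1 library other than aged untreated replicate 3 (0.0652 to 0.195), and also with no filter (0.0955), without robust estimation (0.0555), in a fit of these groups alone (0.114) and without aged untreated replicate 1 and young replicate 2 together (0.237). Between treated and young livers Hamp, the hepcidin gene, rose (4201 ± 440 TPM against 2222 ± 194 TPM, adjusted p = 0.0317), and Ttr, the transthyretin gene, fell (5811 ± 535 TPM against 7682 ± 430 TPM, 0.0357). Hamp has a close copy, Hamp2, so its value is uncertain. The calls of Hamp and Ttr were lost without any 1 of the treated or young libraries (0.0579 to 0.147), with no filter (0.0566 for Hamp and 0.056 for Ttr) and with quantile normalization (0.21 for Hamp and 0.413 for Ttr). The Ttr call was also lost with median-of-ratios scaling (0.11) and without robust estimation (0.0576). Without aged untreated replicate 1 and young replicate 2 together both calls were lost (0.106 for Hamp and 0.0536 for Ttr).

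The acute phase list of genes known as targets of C/EBP-beta and C/EBP-delta had 17 of 18 members above 0 in treated against aged untreated livers with a median log2 fold change of 0.42, and 18 of 18 in aged untreated against young livers with a median of 0.51. These comparisons share the aged untreated libraries. Between treated and young livers, a contrast that holds both, 18 of 18 were above 0 with a median of 0.99. Of all tested genes 33.3%, 47.9% and 35.1% lay above 0 in these 3 comparisons. In the first limma called none, with 2 at an unadjusted p under 0.05, and in the second none, with 3. Between treated and young livers Crp (346 ± 51.3 TPM against 216 ± 26.8 TPM, adjusted p = 0.0151), Saa4 (284 ± 29.4 TPM against 83.2 ± 11.9 TPM, 0.0182) and the fibrinogen gene Fgg (3789.7 ± 85.4 TPM against 2195 ± 200.5 TPM, 0.0422) rose. In treated against young livers 18 of 18 did not overlap, where 9.55% of all tested genes lay higher without overlap. In treated against aged untreated livers 2 of 18 lay higher without overlap, beside 5.72% of all tested genes. The count was also 2 of 18 between aged untreated and young livers, beside 8.82%. Summed over the 18 genes, young libraries ranged from 12911 to 20118 TPM. Of the aged untreated group only replicate 1 exceeded that range, at 41866 TPM. Replicates 2 and 3 lay within it, at 19591 and 13360 TPM. The calls of Crp and Saa4 were lost without treated replicate 2 or 3 or young replicate 1 or 3 (0.0547 to 0.077), and that of Fgg without any 1 treated or young library (0.0796 to 0.136), with no filter (0.0756), with quantile normalization (0.132) and without aged untreated replicate 1 and young replicate 2 together (0.0604). Hp, the haptoglobin gene, was at 5126, 6870.3 and 5195 TPM in treated, 6888, 2777 and 2045 TPM in aged untreated livers, and 2088, 3321 and 2032 TPM in young replicates 1 to 3. Hpx, the hemopexin gene, was at 6089 ± 1135 TPM in treated, 4787 ± 2220.1 TPM in aged untreated livers and 3495 ± 1029 TPM in young livers. Neither was called, but aged untreated replicate 1 decided the Hp value. Without it Hp was called higher in treated against aged untreated livers (log2 fold change 1.25, limma adjusted p = 0.0323), against 0.74 (0.407) with it. That library had the highest Hp of its group, so its omission raises the fold change by itself, and the call is no test of Hp. Some members, such as the Saa and Orm genes, have near-identical copies between which reads can be split.

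The levels of acute phase transcripts and of Cebpb were set side by side in each library. Apart from aged untreated replicate 1, every untreated library lay below every treated one in both Saa1 and Cebpb. Saa1, the major serum amyloid A gene, was at 3099, 7204 and 2730 TPM in treated, 6008, 222 and 123.3 TPM in aged untreated livers, and 38.3, 1482 and 52.3 TPM in young replicates 1, 2 and 3. Aged untreated replicate 1, which had the highest Saa1 of the untreated libraries, had 84.0 TPM of Cebpb, between the other two of its group. Treated replicate 2, with the most Saa1 of all, had the lowest Cebpb of the treated libraries. Without aged untreated replicate 1 and young replicate 2, the untreated libraries highest in Saa1, the Cebpb log2 fold change was 0.98 against aged untreated livers (limma adjusted p = 0.0417) and 0.94 against young livers (adjusted p = 0.0213). Saa1 itself was not called against aged untreated livers with all libraries (log2 fold change 2.84, limma adjusted p = 0.501). A fit without those libraries is no test of Saa1, since the libraries were left out for their high Saa1. It also widens the gap in Saa1 between treated and untreated livers, so it cannot separate Cebpb from the acute phase genes. Whether the levels of Cebpb and of the acute phase genes are linked was not tested.

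Myeloid cells also express Cebpb and Cebpd. The 9 listed neutrophil markers summed to 24.95 to 35.03 TPM in treated, 9.94 to 26.6 TPM in aged untreated livers, and 3.34 to 4.13 TPM in young livers, and none was at 0 in every library. The 9 listed Kupffer cell and macrophage markers summed to 84.1 to 92.8 TPM in treated, 94.6 to 126 TPM in aged untreated livers, and 97.9 to 143 TPM in young livers. The neutrophil sum was thus higher and the macrophage sum lower in all treated than in all young libraries. Only the macrophage sums were without overlap against aged untreated livers. Of the neutrophil markers only 3, S100a8, S100a9 and Retnlg, passed the filter, and they made up most of that sum. Mpo, Camp and Ngp were at 0 in most libraries, and Elane had means of 0.129 TPM in treated and 0.364 TPM in aged untreated livers. Among the macrophage markers 1 of 9 lay above 0 in treated against young livers, Lyz2, at 36.0 against 32.9 TPM. Aged untreated replicate 1 had a neutrophil sum of 26.6 TPM and 84.0 TPM of Cebpb. Treated replicate 1 had 24.95 TPM and 156 TPM. The other untreated libraries lay below every treated one in both values. The part of these cells in the Cebpb level was not tested.

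**Figure D4:**
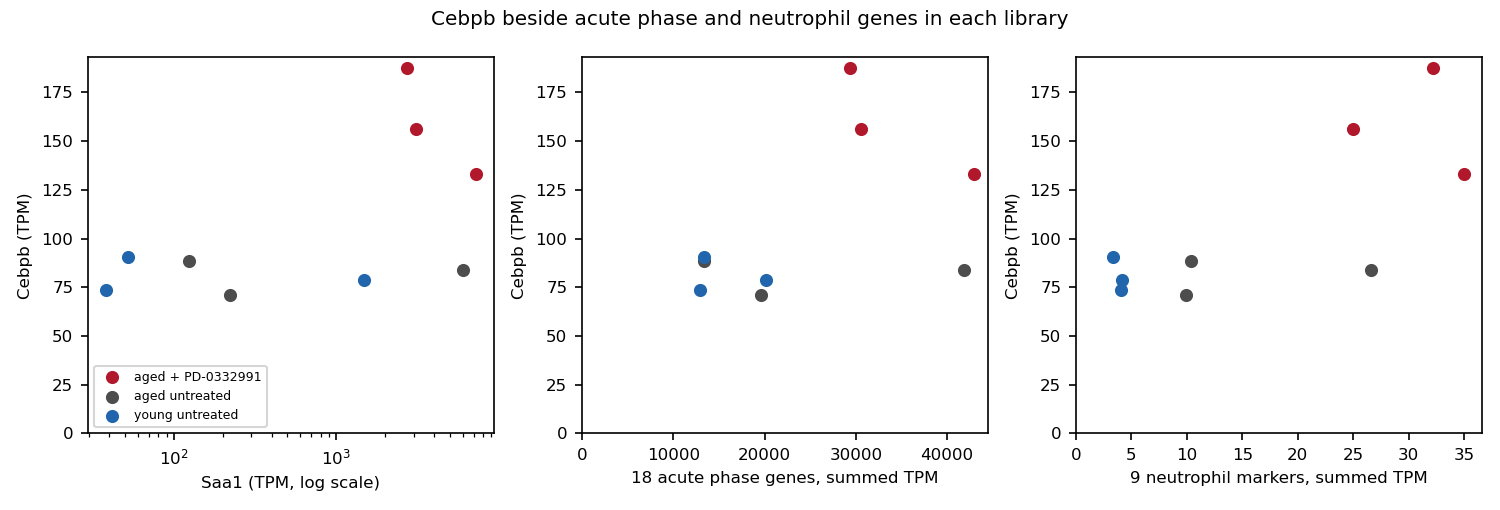
Cebpb in TPM (y axes, from 0) against Saa1 in TPM on a log scale, the summed TPM of 18 acute phase genes and the summed TPM of 9 neutrophil markers (x axes); each point is 1 of 9 libraries, coloured by group. Aged untreated replicate 1 lies among the treated libraries on the x axes, with an acute phase sum of 41866 TPM, and among the untreated ones in Cebpb at 84.0 TPM. On each x axis the other untreated libraries lie below every treated one.

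Of 13 listed genes of IL-6 and STAT3 signalling, which induces Cebpd and acute phase genes, 10 were tested. In treated against aged untreated livers 9 of these lay above 0, against 33.3% of all tested genes, with a median of 0.41. None was called by limma, and 3 had an unadjusted p under 0.05. Socs1, left out by the filter, went the other way. It was at 0.473, 0.275 and 0.104 TPM in treated and 1.60, 0.656 and 1.06 TPM in aged untreated replicates 1 to 3. Il6 and Tnf, also left out, were under 1 TPM in every library. Osmr and Il1b reached 1 TPM in 3 and 4 libraries, all treated or aged untreated, and so passed the filter only through these groups. The count of 9 among 10 thus depends in part on the filter. Socs3, the feedback inhibitor of STAT3 signalling, was at 18.6, 20.8 and 15.2 TPM in treated, 6.98, 7.37 and 2.72 TPM in aged untreated livers, and 4.44, 4.91 and 2.41 TPM in young replicates 1 to 3. Stat3 was at 38.6, 38.9 and 40.3 TPM in treated, 29.0, 26.9 and 17.4 TPM in aged untreated livers, and 16.4, 14.8 and 15.3 TPM in young replicates 1 to 3. Both genes had every treated library above every untreated one, and both stayed just above the threshold against aged untreated livers (limma adjusted p = 0.0571 for Socs3 and 0.0553 for Stat3). Against young livers Socs3 (log2 fold change 2.12 ± 0.36, adjusted p = 0.0128) and Stat3 (1.31 ± 0.16, 0.00215) rose and the cytokine receptor gene Lifr fell (-0.75 ± 0.13, 0.0101), and Lifr also fell in aged untreated against young livers (-1.02 ± 0.13, 0.00689). Il1r1, an interleukin-1 receptor gene, was at 29.2 ± 3.68 TPM in treated, 20.9 ± 13.9 TPM in aged untreated livers and 6.57 ± 1.51 TPM in young livers. The kinase gene Jak1 was at 14.8 ± 0.590, 13.8 ± 1.10 and 14.02 ± 1.59 TPM, with no call. Without treated replicate 2 the treated against young calls of Socs3 (0.063) and Lifr (0.0516) were lost.

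Triglyceride synthesis genes, of which Dgat1 and Dgat2 encode the enzymes of the last step, had no member of 11 called by limma in treated against aged untreated or in aged untreated against young livers, where 2 each had an unadjusted p under 0.05. Dgat1 was at 13.5 ± 0.742 TPM in treated, 14.6 ± 0.157 TPM in aged untreated livers, and 13.8 ± 1.07 TPM in young livers. Dgat2 was at 137 ± 11.6, 143 ± 2.27 and 161 ± 15.6 TPM. Agpat2, which makes phosphatidic acid, was at 107 ± 6.98 TPM in treated, 145 ± 24.3 TPM in aged untreated livers and 136 ± 7.65 TPM in young livers (log2 fold change -0.42 against aged untreated livers, limma adjusted p = 0.116). Mogat1, which makes diacylglycerol, rose in treated against young livers at low levels (1.56 ± 0.255 TPM against 0.532 ± 0.0953 TPM, limma adjusted p = 0.0317), a call lost with no filter (0.0566), without aged untreated replicate 1 and young replicate 2 together (0.0734) and without treated replicate 2 or 3 or any 1 young library (0.0678 to 0.111). Mogat1 was under 1 TPM in all 3 young libraries and reached it in 5 libraries, all treated or aged, so that it passed the filter only through the groups in which it was higher.

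Among 20 tested partners of p300 and CBP and other acetyltransferases, none was called by limma in treated against aged untreated livers, 2 had an unadjusted p under 0.05, and the median was -0.20. Kat2b, the acetyltransferase PCAF that binds p300 and CBP, fell in treated against young livers (8.43 ± 0.613 TPM against 12.8 ± 1.05 TPM, limma adjusted p = 0.0182), and was at 10.9 ± 1.41 TPM in aged untreated livers. That call was lost without treated replicate 1, 2 or 3 or young replicate 1 or 3 (0.0508 to 0.075). Kat8 was at 11.2 ± 0.101 TPM in treated, 9.79 ± 0.394 TPM in aged untreated livers, and 10.99 ± 1.44 TPM in young livers. Crtc2, a coactivator of CREB, was at 10.7 ± 1.15, 9.69 ± 1.16 and 10.7 ± 1.82 TPM, with no call.

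Of the other SWI/SNF subunits 23 of 28 were tested, and 4 of these had a log2 fold change above 0 in treated against aged untreated livers, with a median of -0.13 beside -0.09 over all tested genes. None was called by limma, and 3 had an unadjusted p under 0.05, a smaller share than the 18.25% of all tested genes. Their summed level was 146 to 157 TPM in treated, 175 to 199.5 TPM in aged untreated livers, and 169.9 to 186 TPM in young livers, so that every treated library lay below every untreated one. Bcl7c, the most abundant of these genes, had the largest fall in mean TPM and weighs most in that sum. In 8 of the 23 the treated libraries all lay below the aged untreated ones, where 16.7% of all tested genes did so. Neither the sum nor this count was corrected for the median of -0.09 over all tested genes. Bcl7c was at 24.7 ± 2.75 TPM in treated, 44.4 ± 12.2 TPM in aged untreated livers, and 37.5 ± 8.53 TPM in young livers. Its log2 fold change was -0.80 against aged untreated livers (limma adjusted p = 0.0779). The adjusted p was 0.0342 without aged untreated replicate 1, the lowest of that group, an omission that deepens the fall by itself. Smarcd2 was at 20.6 ± 1.76, 25.5 ± 1.47 and 23.0 ± 1.42 TPM in the same groups. Arid1a, the DNA-binding subunit of the BAF form, fell in treated against young livers (2.76 ± 0.149 TPM against 4.14 ± 0.314 TPM, adjusted p = 0.0369). That call was lost with median-of-ratios scaling (0.0826), with quantile normalization (0.0693), without aged untreated replicate 1 and young replicate 2 together (0.0706) and without any 1 treated or young library (0.062 to 0.131).

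Of all tested genes 0.837% were called lower and 0.61% higher in treated against aged untreated livers. Of 17 tested remodeller ATPases outside SWI/SNF, 1 fell there and none rose. This was Chd4, the ATPase of the NuRD complex, at 6.79, 5.59 and 6.57 TPM in treated, 9.19, 11.7 and 9.91 TPM in aged untreated livers, and 10.8, 10.03 and 10.1 TPM in young replicates 1, 2 and 3. All treated libraries lay below all untreated ones, which overlapped each other. The Chd4 log2 fold change was -0.66 ± 0.12 in treated against aged untreated livers (limma adjusted p = 0.0252) and -0.67 ± 0.12 in treated against young livers (0.011). The first call was lost without treated replicate 1, 2 or 3 or aged untreated replicate 2 (0.0517 to 0.109), with no filter (0.0567) and in a fit of these groups alone (0.0921), and the second without treated replicate 2 (0.055) or young replicate 1 (0.0534). Chd3, a close relative, was at 12.2 ± 1.08 TPM in treated and 10.98 ± 0.463 TPM in aged untreated livers, and Smarca5, the ISWI ATPase, at 5.69 ± 0.443 and 6.26 ± 2.30 TPM, with no call.

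**Figure D5:**
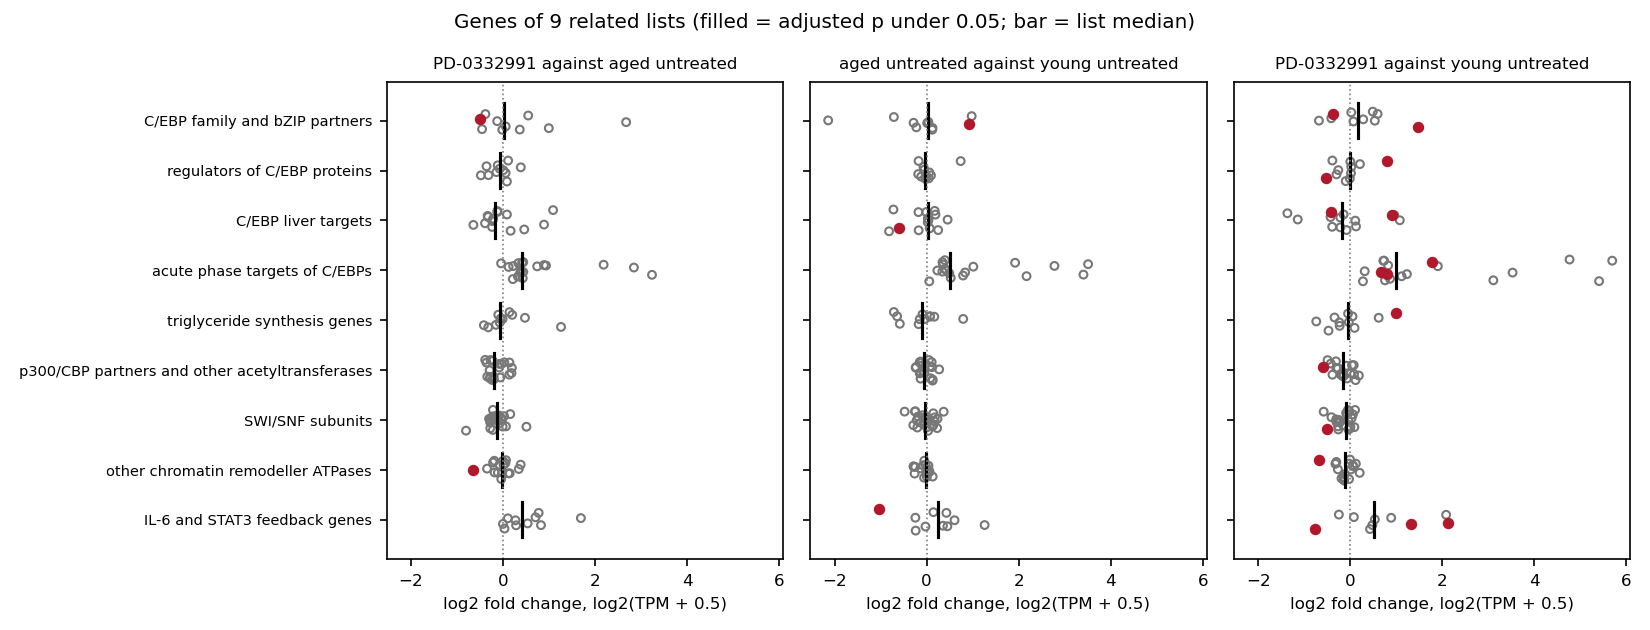
Log2 fold change on the log2(TPM + 0.5) scale (x axis) of the tested genes of 9 lists (rows) in the 3 comparisons; each circle is a gene, filled where the adjusted p is under 0.05, and the bar is the list median. The acute phase list has medians of 0.42, 0.51 and 0.99 in the 3 panels, and the filled circles in treated against aged untreated livers are Atf4 and Chd4.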

How the data were processed

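Per the labels' protocols, total RNA from liver was prepared with Illumina TruSeq chemistry and sequenced from both ends. Per the submitters' processing notes, the tool was kallisto and the genome mm10. The version of kallisto, the transcript annotation and gene-level step are not given in the sources used. The authors deposited TPM per gene symbol, 1 table per library. From 23444 rows, 4 rows with repeated date-like symbols were left out, and 23 date-like symbols were kept. Genes with at least 1 TPM in at least 3 of 9 libraries were tested (10161) on log2(TPM + 0.5) with limma 3.58.1 in R 4.3.3, in 1 model of the 3 groups with intensity trend and robust variance, two-sided, with Benjamini-Hochberg adjustment over all tested genes and a threshold of 0.05. The fit was tested on simulated data. Ratios used exact permutation tests. Groups and replicate numbers came from the sample titles.

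The 8 genes and 9 gene lists were chosen with earlier results of these data known. The genes named are the 8, up to 4 called and 2 uncalled members of each list (lowest adjusted p, highest mean TPM), Cdk4, Dgat1, Dgat2, Saa1, Ddit3 and the nearest patterns. Some further genes are named where they limit a result. Coordinates are from GENCODE M21 (GRCm38) and promoters from RefSeq (GRCm38.p6). No 2 libraries held identical values, and libraries of 1 group correlated over tested genes with Pearson's r of 0.970 to 0.990.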

Additional observations from a re-analysis of the deposited data

How the results depend on the processing

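Cebpb kept its call against young livers under all 20 alternatives, and against aged untreated livers under all but the one without treated replicate 3. Over 1309 recomputed gene values, 1150 kept their direction and side of the threshold, 120 were no longer called, 9 were newly called and 30 changed sign, of which 0 had been called. The causes were not tested. Of 23 called results for named genes, 4 held without any 1 library.

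Genes called in treated against aged untreated livers numbered 147, with no filter 29, with array weights 271, with these groups alone 25 and with a replicate block 60. Leaving out 1 library gave 7 to 392. In aged untreated against young livers there were 112, with no filter 62, with array weights 490, with these groups alone 49, and 21 without aged untreated replicate 1 and young replicate 2, an alternative chosen after seeing the data. Leaving out 1 library gave 15 to 696. For treated against young livers there were 699, with array weights 1354, with these groups alone 1282, and 404 under that added alternative. Leaving out 1 library gave 151 to 1263. Of the 8 genes, 0 to 1 were called against aged untreated livers with 1 library left out, and 1 to 2 against young livers, where array weights gave 2.

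The replicate numbers gave no sign of pairing. Same-numbered deviations correlated at -0.22 to 0.166 and different-numbered ones at -0.222 to 0.229. With 3 libraries a group such correlations cannot exclude pairing. With the replicate block Cebpb had a limma adjusted p of 0.00818 against aged untreated and 0.00473 against young livers. The block ended the calls of Atf4 (0.0641) and Chd4 (0.0688) against aged untreated livers, of Gys2 (0.0638) between aged untreated and young livers, and of Atf4 (0.0606), Ttr (0.069), Fgg (0.0506) and Arid1a (0.0758) against young livers.

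Median-of-ratios scaling moved the median of all genes by 0.10 against aged untreated and 0.12 against young livers. Calls in treated against aged untreated livers then split into 119 higher and 55 lower, in place of 62 and 85, and quantile normalization split them into 88 and 56. Against young livers the splits were 386 and 228 by median of ratios and 308 and 310 by quantiles, in place of 263 and 436.

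The sign changes were all in uncalled values near 0. In treated against aged untreated livers, median-of-ratios scaling gave 0.0312 for Ccnd3, 0.0501 for Dgat2 and 0.0219 for Smarca5, quantile normalization gave 0.0195 for Smarca5, and the added alternative gave 0.0112 for Ccnd3. With 1 library left out, Dgat2 ranged over -0.117 to 0.00393, Ccnd3 over -0.157 to 0.0112, Smarca5 over -0.288 to 0.182, Smarca4 over -0.0238 to 0.165 and the Smarca2 to Smarca4 log2 ratio difference over -0.037 to 0.104. In aged untreated against young livers, quantile normalization gave -0.0213 for Cebpb and -0.000188 for Cebpg, array weights gave -0.000811 for Cebpb, and the added alternative gave 0.0157 for Cebpa, -0.0428 for Cebpb and -0.0935 for Cebpg. With 1 library left out, Cebpa ranged over -0.13 to 0.0245, Cebpb over -0.0636 to 0.0955, Cebpg over -0.101 to 0.158 and the Cebpb to Cebpa log2 ratio difference over -0.0398 to 0.214. For treated against young livers, median-of-ratios scaling gave 0.0332 for Ep300 and 0.00376 for Smarca2, quantile normalization gave 0.0877 for Ep300, array weights gave -0.0165 for Crebbp, and the added alternative gave -0.0702 for Crebbp, which ranged over -0.0702 to 0.0624 with 1 library left out. Cebpd is not tested where 5 TPM in 3 libraries are asked for. Depth is unknown, which limits what the low levels of Crebbp, Ep300 and Cebpd can show.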
